A study of Mus musculus with 6 samples.

Results

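The interferon-induced transmembrane (IFITM) genes are a family of 7 mouse genes, Ifitm1, Ifitm2, Ifitm3, Ifitm5, Ifitm6, Ifitm7 and Ifitm10, out of 46072 gene identifiers in the expression table of splenic monocytes. The members were chosen by name, and all 7 were listed in the table. The family was picked because Ifitm6 fell by nearly the same amount in every vancomycin library, so the difference of Ifitm6 between treatments is described here without a test, and the other members were tested against the same contrast.

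Splenic monocytes came from female C57BL/6 mice, aged 8 to 10 weeks per the study's methods, and were isolated by magnetic negative selection. Van mice received vancomycin, an oral antibiotic that is poorly absorbed and acts mainly on Gram-positive gut bacteria, at 2 mg per mouse per day in 2 gavages of 1 mg for 6 days. Con mice received water by the same route. All mice were then left without antibiotic, for 6 to 8 days per the labels and 8 days per the study's text on its monocyte sequencing. Each treatment had 3 libraries, with totals from 43383919 to 61834407 estimated counts. The study's text gives 3 mice per treatment. It names another deposit for its sequencing, and was matched to these libraries by tissue, treatment and group only. The labels do not tie a library to a mouse, so the p-values below measure the spread between these libraries.

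IFITM proteins are small membrane proteins with a conserved CD225 domain. IFITM1, IFITM2 and IFITM3 restrict the entry of many enveloped viruses by acting on membrane fusion. IFITM1 resides mostly at the cell surface, whereas IFITM2 and IFITM3 are found mostly in endosomes and lysosomes. Their genes are induced by interferons, in myeloid cells among others. IFITM5 is a protein of bone-forming osteoblasts and lacks the interferon response of its neighbours. The functions of IFITM6, IFITM7 and IFITM10 are less well known.

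In the GENCODE M21 annotation of GRCm38, 5 members form a cluster on chromosome 7. Ifitm6 lay at chr7:141015699-141017924 on the minus strand, next to Ifitm3 at chr7:141009586-141010770, also on the minus strand. Further along were Ifitm1 at chr7:140967221-140969825 on the plus strand, Ifitm2 at chr7:140954837-140955987 and Ifitm5 at chr7:140948958-140950291, the last pair on the minus strand. Ifitm10 lay apart on the same chromosome at chr7:142325837-142373753 on the minus strand, and Ifitm7 was on chromosome 16 at chr16:13981699-13986888 on the minus strand. Each member is annotated as protein-coding, and Ifitm6 has 3 coding transcripts of 2 or 3 exons.

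The 4 members that carried nearly all of the family's expression are closely related in sequence. To show how far they can be told apart, 90 coding bases of the conserved domain are given 5′ to 3′ from the GENCODE M21 transcripts, with capitals marking each base that differs from Ifitm6.
Ifitm6, coding bases 109 to 198: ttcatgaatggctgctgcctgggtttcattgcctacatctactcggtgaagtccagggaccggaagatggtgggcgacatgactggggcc
Ifitm3, coding bases 199 to 288: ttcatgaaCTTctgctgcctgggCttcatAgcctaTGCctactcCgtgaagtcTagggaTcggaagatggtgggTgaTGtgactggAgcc
Ifitm2, coding bases 196 to 285: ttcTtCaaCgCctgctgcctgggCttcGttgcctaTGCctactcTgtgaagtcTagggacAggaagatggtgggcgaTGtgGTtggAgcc
Ifitm1, coding bases 133 to 222: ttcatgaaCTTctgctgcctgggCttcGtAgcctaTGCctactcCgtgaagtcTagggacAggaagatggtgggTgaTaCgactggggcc
Ifitm3 and Ifitm1 each differed from Ifitm6 at 15 of the 90 bases, and Ifitm2 at 17. The window was picked as the gap-free 90 bases of Ifitm6 with the most identical bases across these members, so it shows them at their most alike. Over the whole aligned coding sequence, Ifitm6 was 73.2% identical to Ifitm7, 70.3% to Ifitm2, 69.7% to Ifitm1 and 69.4% to Ifitm3. Ifitm1 and Ifitm7 were the closest pair, at 89.3%.

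Exact sharing was searched with 1 transcript per member, and further transcripts of Ifitm1, Ifitm6, Ifitm7 and Ifitm10 were not searched. In these transcripts no stretch of 100 bases occurred in another member. None of the 564 windows of 100 bases of the Ifitm6 transcript, and none of those of Ifitm1, Ifitm3 or Ifitm7, occurred in a transcript of another gene. In Ifitm2, 194 of 556 windows (34.9%) did, of which 26 matched the copies Gm11951 and Gm8865. Neither copy held more than 0.285% of the count of Ifitm2 in any library. The remaining shared windows of Ifitm2, and all 131 shared windows of 666 in Ifitm5 (19.7%), matched Gm45717, an overlapping transcript on the same strand that the table does not list. The counts of Ifitm2 and Ifitm5 could therefore include reads of Gm45717. Ifitm10 shared 118 of 3313 windows (3.6%) with Gm49369, also unlisted.

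Promoter sequence was then read for the elements through which interferon acts on this family. In the RefSeq windows of GRCm38.p6, from 250 bases before to 50 bases after each annotated start, both strands were searched for an ISRE-like element, spelled GAAA, any 2 bases, GAAA and bound by interferon-activated STAT and IRF complexes, and for a GAS-like element, spelled TTCNNNGAA and bound by STAT dimers. The matches in the 3 most highly expressed members are shown with their flanks, the matched letters in capitals and positions counted from the start.
Ifitm3, ISRE-like, bases 3 to 12, chr7:141010723-141010752, minus strand: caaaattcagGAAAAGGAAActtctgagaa
Ifitm3, ISRE-like, bases 20 to 29, chr7:141010706-141010735, minus strand: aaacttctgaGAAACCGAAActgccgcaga
Ifitm2, ISRE-like, bases -46 to -37, chr7:140955988-140956017, minus strand: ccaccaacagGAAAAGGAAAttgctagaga
Ifitm6, GAS-like, bases -10 to -2, chr7:141016884-141016912, minus strand: ccatatgaacTTCCTTGAAacaagagctt
Ifitm3 also held a GAS-like match at bases 14 to 22, which overlaps its ISRE-like match at bases 20 to 29. The RefSeq start of Ifitm6 lies inside its GENCODE locus, and the letters of the ISRE-like element were not in its window. Of 32851 promoter windows of this length, 3.44% held the ISRE-like letters and 8.3% the GAS-like letters. Neither was in the windows of Ifitm1, Ifitm5, Ifitm7 or Ifitm10. For the myeloid factors PU.1 (GAGGAAG, in 13.6% of windows) and C/EBP (TTGC, any 2 bases, AA, in 10.8%), the only match in the family was a C/EBP-like element in Ifitm7.

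Ifitm3 was the most abundant member in splenic monocytes. Its mean over the 6 libraries was 1224 FPKM (fragments per kilobase of transcript, scaled to library size), the rank of 25 among all genes in the table. Ifitm2 followed at 580.4 FPKM (rank 89), and Ifitm6 at 295.3 FPKM (rank 209). Ifitm1 was far lower, at 21.7 FPKM (rank 3068). Ifitm5 at 1.31 FPKM and Ifitm10 at 0.708 FPKM were near the lower limit of what these libraries could measure, and Ifitm7 was at 0 in each library.

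The order of these levels was nearly the same from library to library. In each neighbouring pair from Ifitm3 down to Ifitm5, the higher gene exceeded the lower in 6 of 6 libraries (exact two-sided sign-flip permutation test on log2 FPKM with a pseudocount of 1, p = 0.03125, the smallest that 6 libraries can give, adjusted p = 0.0375 over the 6 pairs). Ifitm5 exceeded Ifitm10 in 5 of 6 libraries (exact permutation p = 0.0625), so that pair did not differ beyond its spread. The last pair, Ifitm10 over Ifitm7, was fixed by the counts of 0 of Ifitm7 and shows no more than those. The order was unchanged when any 1 library was left out.

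**Figure D1:**
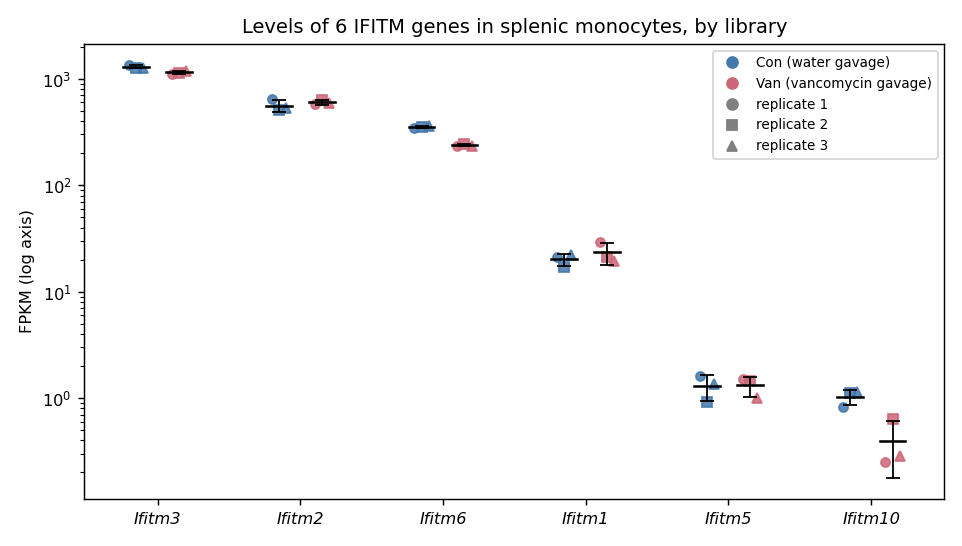
FPKM on a log axis (vertical) of the 6 IFITM genes with any signal (horizontal), with 1 point per library in Con (blue) and Van (red), shapes for the replicate numbers, and a bar for the mean with an error bar of 1 SD (n = 3). Ifitm7 was at 0 and is not drawn. Ifitm3, Ifitm2 and Ifitm6 sit above 200 FPKM, Ifitm1 lies between 17.2 and 29.6 FPKM, and Ifitm5 and Ifitm10 lie below 2 FPKM.

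Summed over the family, FPKM was 2362, 2160 and 2188 in the Con libraries and 1950, 2042 and 2041 in the Van libraries. The groups did not overlap for this sum. Without Ifitm6 the sums were 2019, 1807 and 1827 in Con and 1717, 1796 and 1805 in Van, so that the lowest Con and the highest Van library nearly touched. Ifitm3 supplied between 55.6% and 59% of the summed FPKM in each library.

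Ifitm6 showed the difference for which the family was chosen. In CPM (estimated counts scaled to library size with a TMM factor, and not by length), Ifitm6 was at 224, 230 and 229 in Con and at 151, 156 and 153 in Van. Each Con library lay far above each Van library, with no overlap. The means were 228 ± 3.16 (SD, n = 3) and 153 ± 2.24 (SD, n = 3) CPM, a difference of -32.8%, and the edgeR log2 fold change was -0.57 (SE 0.05). The coefficient of variation was 1.39% within Con and 1.47% within Van. Of the 16138 genes tested, 1016 had a log2 fold change as low as that of Ifitm6 or lower, 4 of them, Ifitm6 included, among the 1097 genes with a mean CPM at least as high. These ranks describe the value that chose the family. In a bulk sample, fewer expressing cells and less RNA per cell cannot be told apart.

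Ifitm3, whose protein traps virus at the hemifusion stage in endosomes, differed less. It was at 1111, 1041 and 1015 CPM in Con and at 902, 899 and 969 CPM in Van. Each Van library lay below each Con library, by a gap smaller than the range within either group. The mean was 1056 ± 49.6 (SD, n = 3) CPM in Con and 923 ± 39.5 (SD, n = 3) CPM in Van, and the log2 fold change was -0.19 (SE 0.06, 2-SE interval -0.31 to -0.08). It did not pass the threshold over all genes (edgeR quasi-likelihood test, Benjamini-Hochberg adjusted p = 0.143). DESeq2 gave an adjusted p of 0.0341 for the same fold change, and the adjusted p ran from 0.0341 to 0.476 over all alternatives.

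Ifitm2, the second most abundant member and an endosomal protein like Ifitm3, overlapped between the groups. Its level was 484, 387 and 389 CPM in Con and 433, 466 and 442 CPM in Van. The highest and the lowest library were both Con, and the Van libraries lay between them. The log2 fold change was 0.09 (SE 0.09, 2-SE interval -0.09 to 0.27, edgeR adjusted p = 0.696). It was 0.20 without Con replicate 1 and 0.03 without Con replicate 2.

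Ifitm1, which codes for the member found at the cell surface, was at 22.3, 18.1 and 22.6 CPM in Con and at 31.1, 21.8 and 20.3 CPM in Van. Only Van replicate 1 lay outside the Con range. The log2 fold change was 0.22 (SE 0.16, 2-SE interval -0.11 to 0.55, edgeR adjusted p = 0.571). Without Van replicate 1 it was 0.0055.

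Ifitm10 was low, and lower in Van. Its CPM was 0.984, 1.20 and 1.37 in Con and 0.286, 0.760 and 0.334 in Van, with no overlap. The estimated counts were 51, 72 and 59 in Con and 18, 39 and 19 in Van, which correspond to an estimated 7 to 27 sequenced fragments per library. The log2 fold change was -1.35 (SE 0.42, 2-SE interval -2.19 to -0.51), and it did not pass the threshold (edgeR adjusted p = 0.157, and from 0.0598 to 0.352 over the alternatives). Without Van replicate 2 the log2 fold change was -1.897, and with limma on log2(FPKM + 1) it was -0.54. At this depth the size of the difference was poorly determined.

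Ifitm5 was at 1.38, 0.781 and 1.14 CPM in Con and at 1.28, 1.19 and 0.840 CPM in Van. The groups overlapped almost fully (log2 fold change 0.00, SE 0.32, 2-SE interval -0.63 to 0.64, edgeR adjusted p = 0.998), on 18 to 29 fragments per library. The osteoblast genes Bglap, which codes for osteocalcin, and Sp7, the osteoblast transcription factor osterix, were at 0 in each library, and Col1a1, the type I collagen chain, was between 0.594 and 1.65 CPM.

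Ifitm7 had no count in any library, so it was not tested. A floor of 3 fragments in a library corresponds to 0.129 to 0.184 CPM, counting error only, and a level below it was not detectable at this depth.

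**Figure D2:**
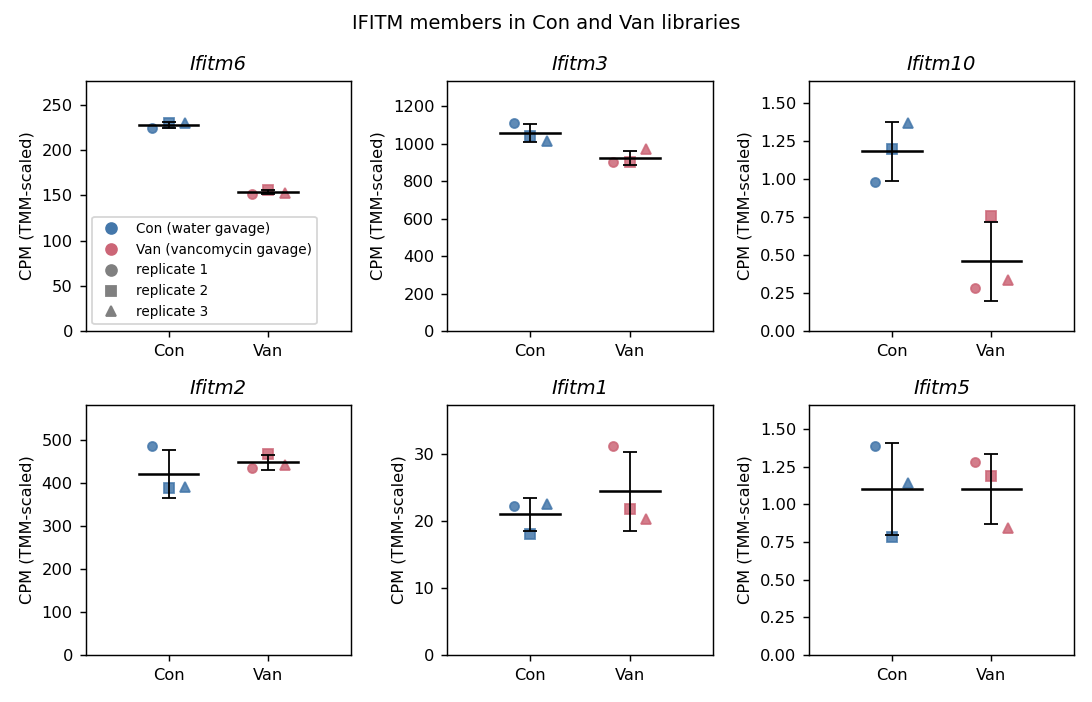
CPM (vertical, TMM-scaled, each axis from 0) of the 6 detected members in Con (blue) and Van (red), with 1 point per library, shapes for the replicate numbers, and the mean with an error bar of 1 SD (n = 3). Con and Van points are apart for Ifitm6, Ifitm3 and Ifitm10, and overlap for Ifitm2, Ifitm1 and Ifitm5.

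Of the 7 members, 6 passed the filter on low counts, and each of these had counts in all 6 libraries. Besides Ifitm6, which the choice of the family fixed, 0 of 5 members passed the edgeR threshold, where 2.00% of the 16138 genes tested did. At an unadjusted edgeR p under 0.05 there were 2, Ifitm3 and Ifitm10, where 16.5% of all genes were (8.14% with a lower estimate in Van). The groups did not overlap, with Van lower, for the same 2 of 5 members, against 11.0% of all genes. DESeq2 called 1 of the 5, Ifitm3, where it called 6.40% of all genes. Limma called 0 of the 5, where it called 0.243% of all genes on log2(FPKM + 1) and 0.0249% on log2(FPKM + 0.1). Among the 6 tested members, 3 had a log2 fold change above 0 and 3 below it.

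Relative levels within a library do not depend on the scaling between libraries. Ifitm6 relative to Ifitm3 was 0.253, 0.277 and 0.283 in Con and 0.210, 0.217 and 0.198 in Van. Relative to Ifitm2 it was 0.537, 0.689 and 0.682 in Con and 0.404, 0.387 and 0.401 in Van. Both ratios were lower in each Van library, and both rest on the fall of Ifitm6 that chose the family.

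The ratio of Ifitm3 to Ifitm2 did not use Ifitm6. It was 2.12, 2.49 and 2.41 in Con and 1.92, 1.78 and 2.03 in Van. The Van libraries were again all lower, with an exact two-sided permutation p of 0.1, the smallest that 3 against 3 libraries can give. Ifitm2 over Ifitm1, also without Ifitm6 and not drawn, was 30.3, 29.8 and 24.1 in Con and 19.5, 30.0 and 30.4 in Van, with overlap. The shares that follow include Ifitm6 in the sum, so its fall raises those of the other members. The share of Ifitm2 in the summed FPKM of the family was 27.0%, 23.7% and 24.2% in Con and 29.6%, 31.2% and 28.9% in Van, whereas that of Ifitm6 was 14.5%, 16.3% and 16.5% in Con and 11.9%, 12.1% and 11.6% in Van.

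**Figure D3:**
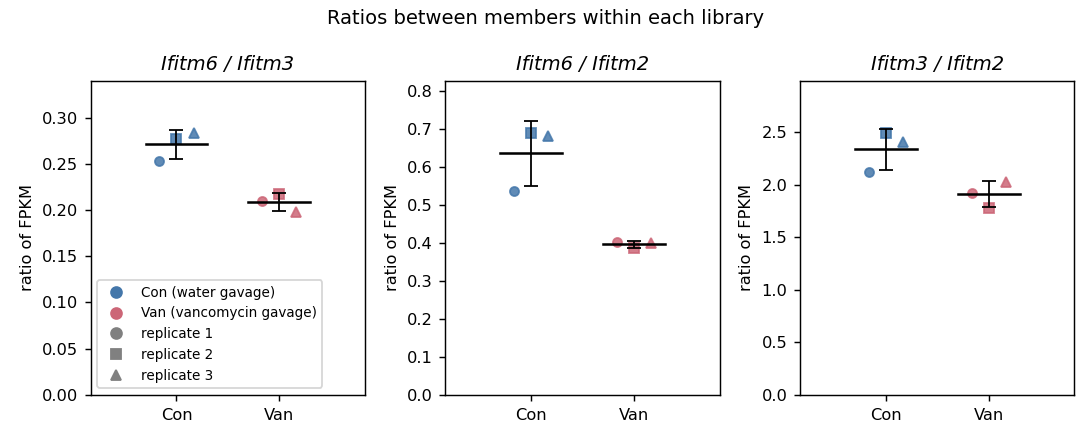
Ratio of FPKM between members of the same library (vertical, from 0), for Ifitm6 over Ifitm3, Ifitm6 over Ifitm2 and Ifitm3 over Ifitm2, with 1 point per library in Con (blue) and Van (red) and the mean with an error bar of 1 SD (n = 3). The Van points lie below the Con points in all 3 panels, with means of 0.208 against 0.271, 0.397 against 0.636 and 1.91 against 2.34.

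Along the cluster, the estimates are given by distance, with no test between members. From the start of Ifitm6, Ifitm3 starts 7.2 kb away, Ifitm1 50.7 kb, Ifitm2 61.9 kb and Ifitm5 67.6 kb. The estimates of Ifitm6 and Ifitm3 lay below 0, and those of Ifitm1, Ifitm2 and Ifitm5, farther away, lay at or above 0, although that of Ifitm5 turned negative without Con replicate 2, Van replicate 1 or Van replicate 2. Outside the cluster, Pgghg (listed as Athl1), a glycosidase gene 76.5 kb away beyond Ifitm5, had a log2 fold change of -0.11 (SE 0.07, edgeR adjusted p = 0.477). On the other side, Pkp3, the desmosomal plakophilin 3, was at -0.39 (SE 0.16, adjusted p = 0.285) with a mean of 5.99 CPM, and B4galnt4, a glycosyltransferase gene at 0.320 CPM, was at -0.92 (SE 0.89, adjusted p = 0.679). None of these neighbours passed the threshold of the edgeR test. Nlrp6 and Cox8b, beyond Pgghg, and Gm17387, next to Ifitm6, were too low to be tested.

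**Figure D4:**
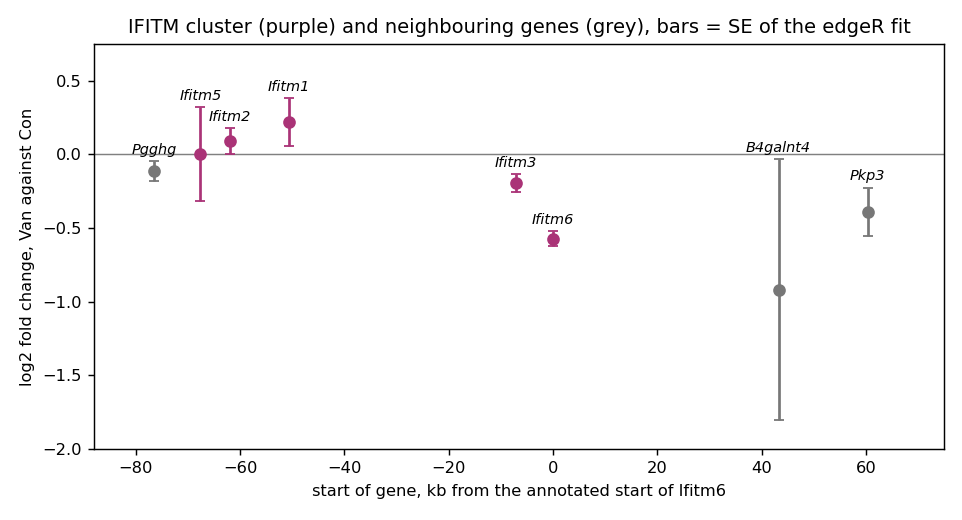
Log2 fold change of Van against Con (vertical) for the 5 IFITM members of the cluster (purple) and the 3 tested neighbouring genes (grey), placed by the start of each gene in kb from the start of Ifitm6 (horizontal, higher coordinates to the right), with error bars of 1 SE of the edgeR fit. Ifitm6 at -0.57 and Ifitm3 at -0.19 lie below 0, and Ifitm1 at 0.22 and Ifitm2 at 0.09 above it.

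Since the family is known as interferon-stimulated, other interferon-stimulated effector genes were read in the same fit. Of 38 such genes outside the family, 35 had a lower estimate in Van and 3 a higher one, against 50.4% of all tested genes with an estimate below 0. The median log2 fold change was -0.232, against -0.0014 over all genes. The edgeR test called 7 of the 38 lower and 0 higher, where 0.917% of all genes were called lower and 1.08% higher. DESeq2 called 13 of them, against 6.40% of all genes, the fit with a replicate block 1, and limma 0 with either pseudocount. The groups did not overlap, with Van lower, for 19 of the 38, against 11.0% of all genes, and 23 had an unadjusted p under 0.05, against 16.5%. The list was put together with results of these data known, so it gives no independent evidence of a direction.

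Of the 4 listed genes of the IFIT family, which bind RNA or take part in such complexes, Ifit2, Ifit3 and Ifit3b were called. Ifit1, which binds viral RNA, was at -0.20 (SE 0.09, edgeR adjusted p = 0.298). Ifit2 was at 60.9, 52.0 and 62.4 CPM in Con and at 39.8, 33.8 and 30.8 CPM in Van (log2 fold change -0.75, SE 0.11, edgeR adjusted p = 0.020). Ifit3 was at -0.62 (SE 0.09, edgeR adjusted p = 0.0223) and Ifit3b at -0.49 (SE 0.08, adjusted p = 0.0283). Ifit2 and Ifit3 thus had estimates at or below that of Ifitm6, with no overlap between groups.

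The other called effectors included Mx1, of the dynamin-like GTPase family, at -0.41 (SE 0.07, edgeR adjusted p = 0.0259), and the guanylate-binding protein gene Gbp3 at -0.48 (SE 0.07, adjusted p = 0.023). The last were the RNA sensor gene Ifih1 at -0.37 (SE 0.06, adjusted p = 0.030) and the oligoadenylate synthetase-like gene Oasl2 at -0.36 (SE 0.07, adjusted p = 0.0416). Isg15, the ubiquitin-like modifier, was at -0.22 (SE 0.12, adjusted p = 0.389) and Bst2, the tetherin gene, at 0.06 (SE 0.08, adjusted p = 0.761). Samhd1, which codes for a dNTP hydrolase, was at -0.24 (SE 0.06, adjusted p = 0.109) and Ly6e, a GPI-anchored surface protein, at -0.01 (SE 0.07, adjusted p = 0.966). Isg15, Bst2, Samhd1 and Ly6e were named after their values were seen. The count of 7 rested on few libraries, since it was 0 without Con replicate 3, Van replicate 2 or Van replicate 3, 2 without Con replicate 2 or Van replicate 1, and 5 without Con replicate 1.

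Of 16 genes for interferon receptors and their signal transduction, edgeR called 0, against 2.00% of all genes, with 5 at an unadjusted p under 0.05, against 16.5% of all genes. DESeq2 called 3 of them, Irf7, Stat2 and Usp18, against 6.40% of all genes, and limma called 0. The receptor gene Ifnar1 was at 0.15 (SE 0.07, edgeR adjusted p = 0.317) and Ifngr1 at 0.09 (SE 0.05, adjusted p = 0.423). Stat2, a subunit of the complex that binds ISRE elements, was at -0.27 (SE 0.07, adjusted p = 0.104), and its partner Irf9 at 0.06 (SE 0.06, adjusted p = 0.669). Among the genes of this list with the largest estimates were Usp18, which damps type I interferon signalling, at -0.33 (SE 0.10, adjusted p = 0.148) and the transcription factor gene Irf1 at -0.34 (SE 0.21, adjusted p = 0.496). The receptor genes, Stat2 and Irf9 were named after their values were seen.

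Genes that act on IFITM proteins were listed too, among them palmitoyltransferases, which anchor the proteins in membranes, the ubiquitin ligase gene Nedd4, subunits of the AP2 endocytic adaptor and tetraspanins. Of 19 such genes, edgeR called 0, against 2.00% of all genes, with 5 at an unadjusted p under 0.05, against 16.5% of all genes, and a median log2 fold change of 0.0241. Among the largest estimates were those of Zdhhc15 (-1.25, SE 0.86, edgeR adjusted p = 0.534), under 1 CPM in each library, and of Nedd4 (-0.39, SE 0.11, adjusted p = 0.137). DESeq2 called 3, Nedd4, Zdhhc20 and Zdhhc7, against 6.40% of all genes, and limma called 0. The palmitoyltransferase gene Zdhhc20 was at 106, 104 and 94.8 CPM in Con and at 87.6, 79.9 and 88.9 CPM in Van (-0.25, SE 0.07, edgeR adjusted p = 0.115). Zdhhc7, another enzyme of that kind, was at 75, 78.9 and 70.9 CPM in Con and at 83.3, 87.1 and 96.5 CPM in Van (0.25, SE 0.07, adjusted p = 0.141). These palmitoyltransferases, named after their values were seen, thus had estimates of opposite sign.

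Other genes with a CD225 domain were nearly silent. Of 7 in the table, 3 passed the filter. Of these edgeR, DESeq2 and limma called 0, and 0 had an unadjusted edgeR p under 0.05, against 16.5% of all genes. Prrt1 (log2 fold change -0.43, SE 0.20, edgeR adjusted p = 0.344) reached 3.14 CPM, Tmem91 (0.41, SE 0.29, adjusted p = 0.548) 1.18 CPM and Syndig1l (-0.03, SE 0.65, adjusted p = 0.991) 0.532 CPM.

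**Figure D5:**
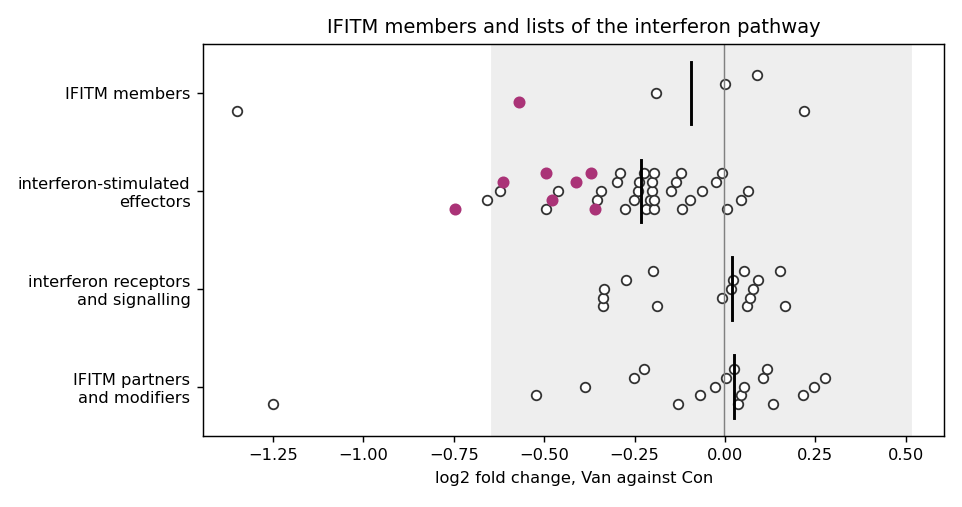
Log2 fold change of Van against Con (horizontal) for each tested gene of 4 lists (rows): the IFITM members, interferon-stimulated effectors, interferon receptors and signalling, and IFITM partners and modifiers. Filled points passed the edgeR threshold (adjusted p at most 0.05), open points did not, black bars are list medians, and the grey band spans the 5th to 95th percentile of all tested genes, -0.643 to 0.514. The effectors lie mostly left of 0, with a median of -0.232, and the IFITM members spread from -1.35 to 0.22. The filled IFITM point is Ifitm6, whose fall chose the family, so its fill and its part in the row median are no test.

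Markers of monocytes and of other spleen cells were read beside these results. Csf1r, the receptor for colony-stimulating factor 1, was between 2986 and 3619 CPM and Lyz2, lysozyme, between 9754 and 12694 CPM, as the label of monocytes implies. Summed over 7 monocyte markers, the level was 17606 to 18813 CPM in Con and 15764 to 18150 CPM in Van, and most of it was Lyz2. Of the 7, 5 had lower and 2 higher estimates in Van (50.4% of all genes had lower ones), and 4 had an unadjusted edgeR p under 0.05 (16.5% of all genes did). The integrin gene Itgam was lower in Van without overlap (-0.21, SE 0.05, edgeR adjusted p = 0.0741), and the lipopolysaccharide co-receptor gene Cd14 higher without overlap (0.28, SE 0.07, adjusted p = 0.101). DESeq2 called both, with Ccr2, where it called 6.40% of all genes, and limma called 0. Ccr2, the chemokine receptor of classical monocytes, was at 757, 757 and 680 CPM in Con and at 316, 444 and 473 CPM in Van (-0.83, SE 0.14, edgeR adjusted p = 0.0283). Ly6c2, which codes for the surface marker of the same cells, was at 389, 404 and 359 CPM in Con and at 262, 272 and 377 CPM in Van (-0.34, SE 0.13, adjusted p = 0.24). In Van replicate 3, Ly6c2 was within the Con range and Ccr2 below it.

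Not all classical markers moved that way. Of 8, 4 had a higher and 4 a lower estimate, and Vcan, a matrix proteoglycan, was called higher (1.54, SE 0.26, edgeR adjusted p = 0.0309). DESeq2 also called both Ccr2 and Vcan of this list, whereas limma called 0 with either pseudocount. Over all genes edgeR called 2.00% and DESeq2 6.40%. The summed level of the classical list was 2520 to 3285 CPM in Con and 2226 to 3954 CPM in Van. Of 8 nonclassical markers, edgeR, DESeq2 and limma called 0, and 2 had an unadjusted edgeR p under 0.05, against 16.5% of all genes. The nonclassical sum was 10883 to 12552 CPM in Con and 11241 to 14833 CPM in Van. The part of monocyte subsets in the difference of Ifitm6 was not tested.

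Among other cell types, erythroid genes had higher estimates in Van for 6 of 6 markers. The edgeR test called 4 of them, where 1.08% of all genes were called higher. DESeq2 called 5, where it called 6.40% of all genes. The fit with the replicate block called 4, where it called 110 of all genes, and limma called 0. The erythroid sum was 61.9 to 125 CPM in Con and 212 to 468 CPM in Van. The 8 markers of red pulp macrophages had higher estimates in Van, with 0 called by edgeR, 3 at an unadjusted p under 0.05 (16.5% of all genes were), 2 called by DESeq2 (6.40% of all genes were), 1 with the replicate block and 0 by limma, and sums of 3443 to 4129 CPM and 3979 to 5244 CPM. Of 7 dendritic cell markers 6 had lower estimates (50.4% of all genes did). Clec9a was called (-1.12, SE 0.14, edgeR adjusted p = 0.0131), where 0.917% of all genes were called lower. Of the 7, 5 had an unadjusted p under 0.05 (16.5% of all genes did), and DESeq2 called 3 (6.40% of all genes). The replicate block called 1 and limma 0, and the sums were 91.5 to 123 CPM and 90.4 to 106 CPM. The part of these cells in the differences of Ifitm6, Ifitm3 and the interferon-stimulated effectors was not tested.

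Most listed neutrophil genes were at or near 0. Ly6g was at 0 in each library, and S100a8 was between 0.711 and 2.76 CPM. The sum over 10 neutrophil markers, 354 to 402 CPM in Con and 410 to 473 CPM in Van, came mostly from Csf3r, a receptor gene at 312 to 387 CPM. Mmp8 was at 30.4 to 89.6 CPM. Of the 8 neutrophil markers tested, 6 had lower and 2 higher estimates in Van (50.4% of all genes had lower ones). B cell markers summed to 17.5 to 20.5 CPM in Con and 14.3 to 17.1 CPM in Van, T cell markers to 40.1 to 52.9 and 31.1 to 42.3 CPM, NK cell markers to 1.16 to 1.98 and 0.912 to 1.75 CPM, platelet markers to 15.6 to 31.4 and 13.6 to 18.9 CPM, plasma cell markers to 72.1 to 109 and 57.2 to 77.6 CPM, and eosinophil and basophil markers to 1.16 to 2.87 and 1.22 to 1.69 CPM. Of these lists edgeR and limma called 0 genes. At an unadjusted edgeR p under 0.05 were 2 of 8 tested neutrophil, 1 of 5 T cell, 2 of 5 platelet and 2 of 3 plasma cell markers, against 16.5% of all genes. DESeq2 called Csf3r and the plasma cell gene Sdc1, where it called 6.40% of all genes.

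Genes with the pattern most like each member were found among 12683 genes over the 6 libraries, by the root mean square difference of log2 CPM after each gene was centred on its own mean. This is a description, since the points share libraries and scaling. A close pattern over the libraries fixes a similar log2 fold change, so those of the genes named follow from the rule. For Ifitm6 the closest were Pml, which builds nuclear bodies (0.0518), Uvssa, a gene of transcription-coupled repair (0.052), Arl2bp (0.0579), Trim5 (0.0586) and 1110032A03Rik (0.0588). Their log2 fold changes lay between -0.62 and -0.48.

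For Ifitm3 the closest were Trim12c (0.0219), Mfap3 (0.0249), Stat5a, a signal transducer of cytokine receptors (0.0284), Cyp27a1, a sterol hydroxylase (0.0297), and Scamp2 (0.03), with log2 fold changes from -0.23 to -0.14. For Ifitm2 they were Ccdc86 (0.024), Tspyl1 (0.0252), the splicing factor gene Srsf3 (0.0299), Herpud1 (0.0308) and Zfp281 (0.0329). For Ifitm1 they were Gm6377, Brip1, Marcksl1, Il31ra and Rhof (0.0563 to 0.0654), and for Ifitm5 Far2, Tnfaip3, Pkd1l3 and Grasp (0.0707 to 0.0866). No member of the family was among the 5 genes closest to another member. With 5 of 12683 genes kept for each, and Ifitm10 and Ifitm7 not compared, this does not show whether members vary together.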

How the data were processed

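Splenic monocyte mRNA was sequenced from 3 Con and 3 Van libraries made with a stranded kit. The submitters' processing notes name HISAT2 2.2.1, SAMtools 1.9, StringTie 2.1.3, DESeq2 1.38.3 and the build GRCm38. The authors deposited a table of estimated counts per gene and a table of FPKM. Columns were matched to samples by their names, and none was left out. Estimated counts summed to between 43383919 and 61834407 per library, and 20093 to 20611 genes were above 0. Of nonzero deposited counts, 52.3% to 55% became whole when multiplied by 75 (tolerance 0.05), and 9.56% to 9.98% when multiplied by 74. The counts were therefore taken as covered bases divided by 75, so that, with the paired-end reads of 100 bases that the study's methods give, each count stands for an estimated 0.375 fragments. Whether counting used strand is not given in the sources used here.

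Counts were rounded, filtered with filterByExpr (minimum count 10) and fitted in edgeR 4.0.16 (R 4.3.3) with TMM scaling and the quasi-likelihood test over 16138 genes, with Benjamini-Hochberg adjustment at 0.05. The SE is the absolute log2 fold change divided by the square root of F. FPKM served for levels between genes. Alternatives used DESeq2 1.42.0, limma 3.58.1 on quantile-normalized log2(FPKM + 1) and log2(FPKM + 0.1), other size factors and filters, a single identifier per symbol, leaving out each library and, chosen after seeing the data, the fragment scale. The edgeR script was tested on simulated data, with changes set in genes at a mean of at least 1 CPM. It recovered 51 of 100 genes changed by a log2 fold of 0.5 and 89 of 100 changed by 1. Of its 150 calls, 10 were false. Libraries of a group differed by more than sampling noise and none was a copy. Transcripts came from GENCODE M21 and promoters from RefSeq, read with Python 3.11.15 and Biopython 1.88.

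The members and lists were chosen with earlier results of these data known. Named by rule were all members, called genes of each pathway list (or the 3 largest estimates where none was called), up to 3 protein-coding neighbours on each side of the cluster, and the 5 genes most like each member, for members and genes at a mean of at least 1 CPM, which Ifitm10 and Ifitm7 did not reach. Some genes that this rule names are not reported here.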

Additional observations from a re-analysis of the deposited data

How the results depend on the processing

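The edgeR test called 322 genes, 1033 were called with DESeq2, 39 with limma on log2(FPKM + 1) and 4 on log2(FPKM + 0.1), and between 21 and 136 when 1 library was left out. Of the IFITM members DESeq2 called 2 and limma on log2(FPKM + 0.1) 0, against 1 with edgeR, Ifitm6, whose call follows from the choice of the family and says nothing about stability. Of the interferon-stimulated effectors 7 were called, against 13 with DESeq2, 0 with either limma fit and 0 to 5 with 1 library left out. The log2 fold change of Ifitm5 ran from -0.20 to 0.20 when 1 library was left out, and was below 0 without Con replicate 2, Van replicate 1 or Van replicate 2. That of Ifitm6 ran from -0.60 to -0.56 over all alternatives. Same-numbered deviations correlated at 0.0253, -0.00192 and -0.0726, which gave no sign that replicate numbers paired the libraries. So few values cannot exclude a weak pairing. With the replicate block, 110 genes and 1 interferon-stimulated effector were called. The block and both limma fits also ended the calls of Ccr2 and Vcan. Fewer residual degrees of freedom under the block, and fewer libraries in the left-out fits, follow from their construction, and the cause of the other shifts was not tested. Depth limited Ifitm5, Ifitm7 and Ifitm10.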
